A study of Bos taurus with 15 samples.

Results

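The tumor necrosis factor (TNF) superfamily was followed across the digestive tract of newborn (NB) and adult (AD) Holstein cattle. The members were all genes whose symbol begins with *TNFSF* or *TNFRSF* followed by a digit, together with *TNF*, *LTA*, and *LTB*. This gave 30 of the 27270 genes in the count tables, of which 14 encode ligands and 16 encode receptors. No *TNFRSF10* or *TNFRSF14* gene was among the 30 members.

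TNF superfamily ligands are mostly membrane proteins of immune cells that act as trimers, and several are also cut off the surface. Their receptors carry cysteine-rich domains outside the cell. Inside the cell, some receptors bind TRAF adaptors and turn on NF-kappaB, others carry a death domain that can lead to caspase-8, and decoy receptors bind a ligand without passing a signal on. In the gut wall, TNF is a main inflammatory product of macrophages, the ligands BAFF (*TNFSF13B*) and APRIL (*TNFSF13*) keep B cells and plasma cells alive, and OX40 (*TNFRSF4*), 4-1BB (*TNFRSF9*), and GITR (*TNFRSF18*) are costimulatory receptors that activated and regulatory T cells display.

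The data were droplet single-cell RNA sequencing (scRNA-seq) counts, with 1 library per tissue and stage. The 11 NB libraries held the liver and salivary gland, 3 stomach chambers (reticulum, abomasum, and omasum), and 6 parts of the intestine (rectum, colon, cecum, and the small intestine as jejunum, duodenum, and ileum). The 4 AD libraries held the duodenum, jejunum, cecum, and colon of 1 lactating cow. The NB tissues came from 3 calves, and the labels do not say which calf gave which library. All animals were Holstein cattle, and the outer muscle layers of the gut had been removed. The AD duodenum and cecum were dissociated with a lamina propria kit, and the AD jejunum and colon with a multi tissue kit. The NB gut was treated with EDTA and trypsin before its enzyme step. That step used collagenases, hyaluronidase, and dispase for the 3 stomach chambers and a propria dissociation kit for the intestine. The NB liver was treated with collagenase and papain, and the NB salivary gland with collagenase and dispase. Among the NB libraries, tissue and dissociation thus also changed together. Stage, animal, and dissociation therefore changed together and cannot be told apart. With 1 library per tissue and stage there was no replicate error and no test. The intervals given are exact 95% intervals that cover counting error only.

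The libraries held 17707625 to 129458578 unique molecular identifiers (UMIs), each a counted RNA molecule. After filters on genes, UMIs, mitochondrial share, and doublets, 119798 of 172405 barcodes were kept. A barcode was placed in a class when it held at least 1 UMI of that class's marker and none of the other 5 classes' markers. The markers were *CD3E* for T cells, *MS4A1* for B cells, *C1QA* for macrophages, *EPCAM* or *KRT14* for epithelial cells, *COL1A2* for mesenchymal cells, and *PECAM1* for endothelial cells. This placed 87313 barcodes in 1 class, whereas 19267 matched several classes and 13218 matched none. A class was used in a library where it had at least 50 barcodes, which left 70 pairs of class and library. Each value is in CPM, the UMIs of a gene in all barcodes of a class per 1000000 UMIs of those barcodes.

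Markers that had no part in choosing the barcodes were summed to check the classes. T cell markers reached 294 to 1361 CPM in the *CD3E* barcodes, and macrophage markers 7152 to 21589 CPM in the *C1QA* barcodes. The T cell markers were also at a median of 147 CPM in the *C1QA* barcodes. Their highest level there was 245 CPM, in the NB duodenum, where the *CD3E* barcodes had 464 CPM. The sum of these markers thus set the *CD3E* class only partly apart from the *C1QA* class. This sum can rest on 1 gene. In the *C1QA* barcodes of the NB abomasum, ileum, and rectum only 1 of the 3 T cell markers was seen, at 102, 147, and 46.6 CPM. All 3 were seen in the *CD3E* barcodes of every library used. Epithelial markers reached 973 to 7697 CPM and mesenchymal markers 6396 to 70732 CPM in their own classes. B cell markers reached a median of 1172 CPM in the *MS4A1* barcodes but 102 CPM in the 57 *MS4A1* barcodes of the NB cecum. Endothelial markers had a median of 1951 CPM in the *PECAM1* barcodes, but were at 168 CPM in the NB liver, 4.22 CPM in the AD duodenum, and 0 CPM in the AD jejunum. The 87 and 81 *PECAM1* barcodes of the AD duodenum and AD jejunum held 171972 and 44442 CPM of the plasma cell genes *JCHAIN* and *MZB1*, and are not called endothelial here. Any 2 libraries shared at most 37 barcode sequences.

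Of the 30 members, 27 reached 10 CPM in at least 1 class of 1 library. The other 3 stayed below it everywhere. *TNFSF4*, the OX40 ligand, peaked at 5.66 CPM in the NB omasum *PECAM1* barcodes. *TNFRSF11A* (RANK), the receptor of the bone and M cell factor RANKL, peaked at 7.68 CPM in the NB ileum epithelial barcodes. *TNFRSF8* (CD30) peaked at 0.147 CPM.

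A gene was said to lead in a class when its median over the NB libraries was highest there, at 10 CPM or more, and at least 2 times the next class after 5 CPM was added to both medians. Of the 22 members that could be judged, 12 (54.5%) led in a class, against 21.5% of the 9755 genes judged in all. The limit of 10 CPM was set on the highest class alone. Genes low elsewhere were thus judged only through the class in which they were high. The background was not matched by level, so these shares describe the members and test nothing. Among the receptors 8 of 12 (66.7%) led, and among the ligands 4 of 10 (40%). The T cell class had 5 of the leading members, where 1.73% of all judged genes led. The B cell class had 3 (background 2.61%), the macrophage class 2 (3.34%), the mesenchymal class 1 (6.81%), the endothelial class 1 (3.61%), and the epithelial class none (3.37%).

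**Figure D1:**
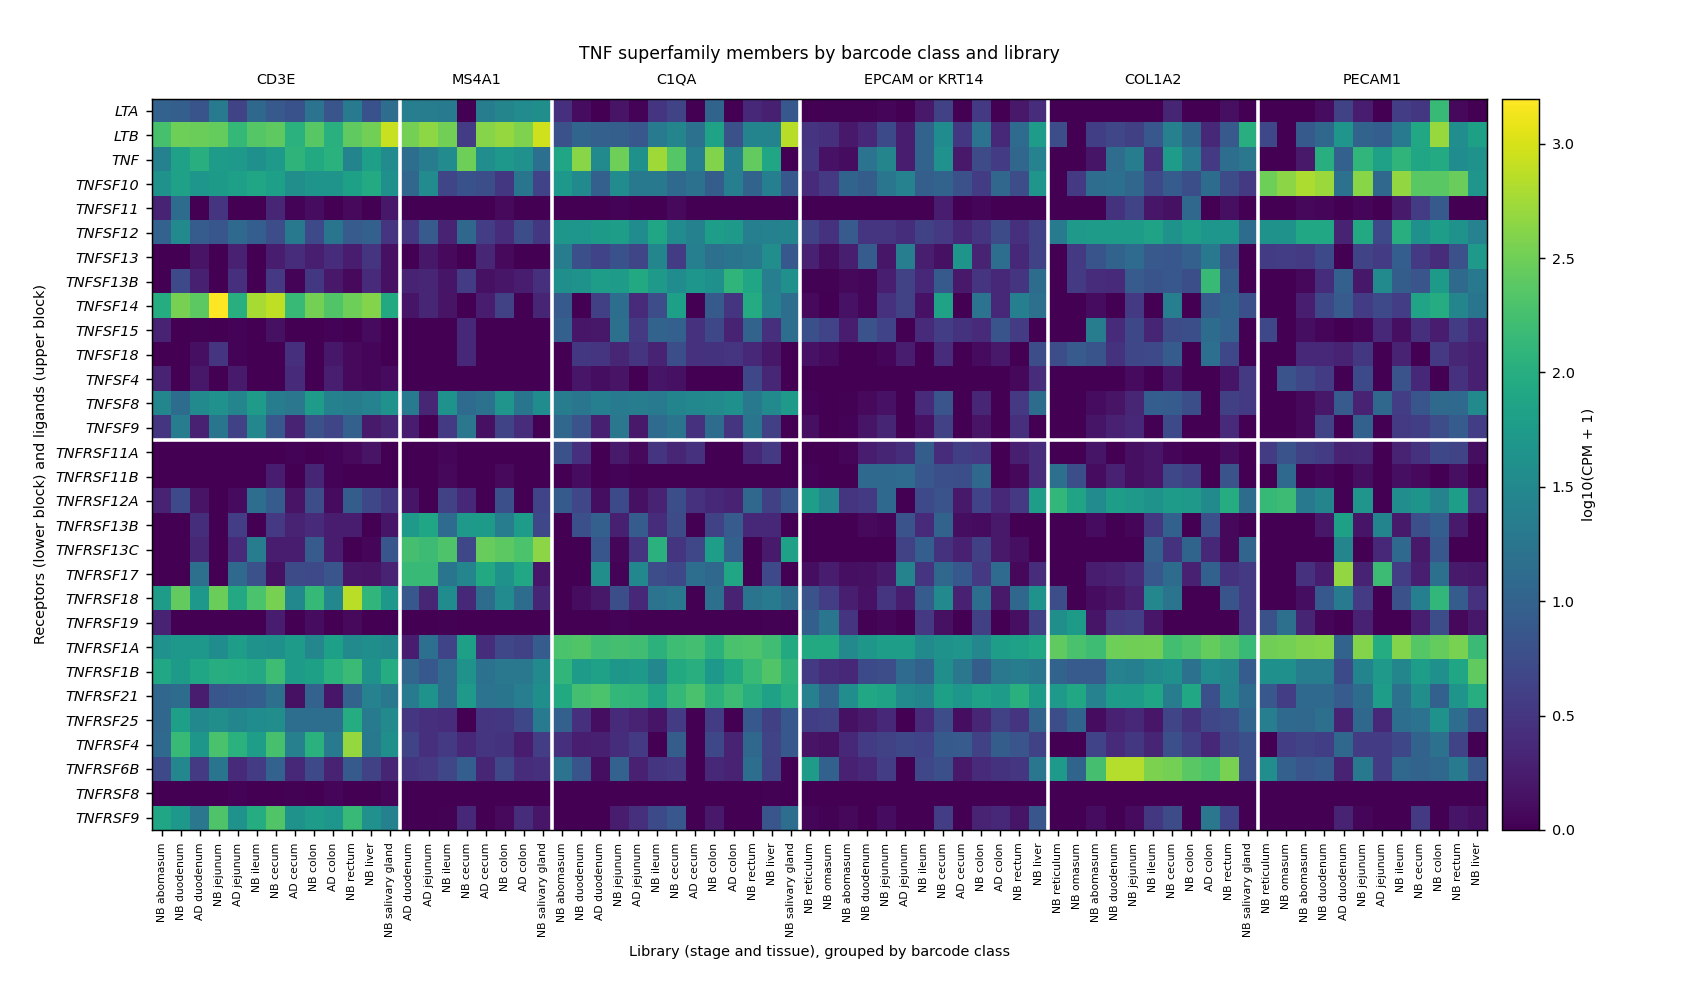
Heatmap of log10(CPM + 1) for the 30 members (rows, ligands in the upper block and receptors in the lower block) in the 70 pairs of barcode class and library (columns, grouped by class). *TNFSF14*, *TNFRSF18*, *TNFRSF4*, and *TNFRSF9* stand out in the *CD3E* columns, *TNFRSF13C* in the *MS4A1* columns, *TNF* in the *C1QA* columns, *TNFRSF6B* in the *COL1A2* columns, and *TNFSF10* in the *PECAM1* columns.

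Among the ligands, *TNF* itself led in the macrophage class. In the NB *C1QA* barcodes it was at 76.2 CPM in the abomasum, 427 in the duodenum, 304 in the jejunum, 549 in the ileum, 222 in the cecum, 393 in the colon, 268 in the rectum, and 74.3 in the liver. No *TNF* UMI was seen in the 65 *C1QA* barcodes of the NB salivary gland, where 3 UMIs would have given 19.9 CPM. The NB median of 268 CPM stood 4.21 times over the next class, the *PECAM1* barcodes, after the added 5 CPM. When barcodes of several classes were kept, the margin fell to 0.88 on the log2 scale, under the factor of 2. In the *CD3E* barcodes *TNF* lay between 24.6 and 85.8 CPM in the NB libraries. In the AD libraries the *CD3E* barcodes were the highest class for *TNF* in 3 of 4, with 51.1 to 118 CPM against 22.7 to 39.2 CPM in the *C1QA* barcodes. In the small *MS4A1* class of the NB cecum, where B cell markers were low, *TNF* stood at 312 CPM.

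*TNFSF13B* (BAFF), the survival factor of B cells, also led in the macrophage class. Its NB levels there ran from 22.4 CPM in the liver over a median of 39.8 CPM to 74.6 CPM in the rectum, 5.11 times the next class after the added 5 CPM. It was the highest of the classes in 8 of 9 NB libraries. When barcodes of several classes were kept, its margin fell to 0.68 on the log2 scale and *TNFSF13B* no longer led. *TNFSF13* (APRIL), which serves plasma cells, had its highest NB median in the same class but was only 1.75 times over the next one, and so did not lead. Its level in the NB *C1QA* barcodes ran from 2.59 CPM in the cecum to 35.8 CPM in the liver. The highest *TNFSF13* level of all, 51.8 CPM, was in the NB liver *PECAM1* barcodes, whose endothelial markers were low.

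*TNFSF14* (LIGHT), a ligand of activated T cells that binds HVEM and the lymphotoxin beta receptor, led in the T cell class by the widest margin of the ligands. Its NB *CD3E* levels were 85.3 CPM in the salivary gland, 94.3 in the abomasum, 310 in the rectum, 334 in the colon, 348 in the duodenum, 397 in the liver, 598 in the ileum, 766 in the cecum, and 1571 in the jejunum. The *CD3E* barcodes were the highest class in 9 of 9 NB libraries, and the median was 19.4 times the next class after the added 5 CPM. In the 4 AD libraries *TNFSF14* was at 102 to 242 CPM in *CD3E* barcodes and again the highest there in 4 of 4.

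*TNFSF10* (TRAIL), which can start death signaling in cells that carry its receptors, led in the endothelial class. It was at 634 CPM in the NB abomasum *PECAM1* barcodes, 524 in the duodenum, 472 in the ileum, 436 in the omasum, 422 in the jejunum, 311 in the reticulum, 292 in the rectum, 237 in the cecum, and 236 in the colon. The NB liver *PECAM1* barcodes, at 45.6 CPM, held 168 CPM of endothelial markers and 418 CPM of macrophage markers, against at least 1523 CPM and at most 129 CPM in the other NB libraries, and the part of this in the *TNFSF10* value was not tested. The median of 367 CPM was 5.48 times the next class, the *CD3E* barcodes, after the added 5 CPM. Those *CD3E* barcodes held 39.2 to 88.2 CPM of *TNFSF10* in the NB libraries.

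The *PECAM1* barcodes could be split by *PROX1*, the master regulator of lymphatic endothelium, in 4 NB libraries with 76 to 110 *PROX1*-positive barcodes. *TNFSF10* was lower in the *PROX1*-positive barcodes in all 4, at 0.577-fold (95% interval 0.484 to 0.684) of the *PROX1*-negative level in the abomasum, 0.497-fold (0.431 to 0.569) in the duodenum, 0.578-fold (0.499 to 0.665) in the jejunum, and 0.715-fold (0.582 to 0.871) in the cecum. *TNFRSF1A* was also lower there, at 0.478-fold (0.371 to 0.607), 0.537-fold (0.460 to 0.623), 0.433-fold (0.365 to 0.511), and 0.575-fold (0.455 to 0.718) in the same order. *TNFRSF1B*, the second TNF receptor, was at 0.0476-fold to 0.320-fold, with only 2 to 6 UMIs per library in the *PROX1*-positive barcodes. Members that were high in leukocyte classes moved with the split in some libraries. *TNF* was at 0.0329-fold (0.00676 to 0.0965) in the duodenum, 0.0540-fold (0.0198 to 0.118) in the jejunum, and 0.127-fold (0.0508 to 0.265) in the cecum. In the cecum the *PROX1*-negative barcodes also held 89.8 CPM of *LTB*, 84.0 CPM of *TNFSF14*, and 26.3 CPM of *TNFRSF18*, against 1.60, 1.60, and 0 CPM in the *PROX1*-positive ones. The part of leukocyte RNA in the differences by *PROX1* was not tested. *TNFRSF6B* went the other way in the duodenum, at 2.81-fold (1.37 to 5.45), and in the jejunum, at 3.57-fold (2.48 to 5.06). In the cecum and abomasum its interval included 1. *TNFSF12* (TWEAK) had intervals that included 1 in all 4 libraries.

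The lymphotoxins were shared by the lymphocyte classes. *LTB*, which forms the membrane complex needed for lymphoid organs, was at 184 to 838 CPM in the NB *CD3E* barcodes. In the *MS4A1* barcodes it was at 331 CPM in the NB ileum, 495 in the NB colon, 911 in the NB salivary gland, and 2.66 in the NB cecum. The NB salivary gland had the highest *LTB* level of both classes, and also 702 CPM in its 65 *C1QA* barcodes, where B cell markers were at 212 CPM. *LTA*, the soluble partner, stayed at 5.32 to 20.4 CPM in the NB *CD3E* barcodes, and at 20.2, 27.9, and 38.2 CPM in the *MS4A1* barcodes of the NB ileum, colon, and salivary gland. Its highest level, 142 CPM, was in the 182 *PECAM1* barcodes of the NB colon, which also held 508 CPM of *LTB* and 128 CPM of *TNFRSF18*, beside 2232 CPM of plasma cell genes. *LTB* overlaps the gene *LST1* in the RefSeq gene table, with strand not considered, and how reads of the pair were split was not tested.

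*TNFSF12* (TWEAK), a ligand with roles in tissue repair, was spread over 3 classes. The NB medians were 54.2 CPM in the *COL1A2* barcodes, 46.1 CPM in the *C1QA* barcodes, and the *PECAM1* median lay within 1.05 times of the *COL1A2* one, with 99.1 CPM in the ileum. *TNFSF8* (CD30 ligand) had its highest NB median in the *MS4A1* barcodes, at 38.3 CPM (range 11.9 to 45.6 over 4 libraries), beside 28.7 CPM (12.4 to 56.5 over 9) in the *CD3E* and 20.8 CPM (16.9 to 53.0 over 9) in the *C1QA* barcodes. In 0 of those 4 libraries was the *MS4A1* class the highest for *TNFSF8*, so the medians rank classes over unlike sets of libraries. *TNFSF9* (4-1BB ligand) peaked at 29.1 CPM in the NB ileum *CD3E* barcodes. *TNFSF15* (TL1A) peaked at 20.9 CPM in the NB abomasum *COL1A2* barcodes, and *TNFSF18* (GITR ligand) at 13.7 CPM in the AD colon *COL1A2* barcodes. *TNFSF11* (RANKL) passed 10 CPM in 2 pairs of class and library, with 12.4 CPM, from 3 UMIs, in the NB duodenum *CD3E* barcodes and 10.6 CPM, from 11 UMIs, in the NB colon *COL1A2* barcodes.

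Among the receptors, the T cell class held 4 leading members, all costimulatory or death domain receptors of lymphocytes. *TNFRSF18* (GITR) was at 50.1 CPM in the salivary gland, 56.4 in the abomasum, 127 in the liver, 138 in the colon, 193 in the ileum, 269 in the duodenum, 299 in the jejunum, 346 in the cecum, and 728 in the rectum (NB *CD3E* barcodes). *TNFRSF4* (OX40) was at 11.3 CPM in the abomasum, 18.4 in the liver, 38.0 in the salivary gland, 60.9 in the ileum, 108 in the colon, 141 in the duodenum, 184 in the cecum, 189 in the jejunum, and 485 in the rectum. The NB rectum thus stood highest for both receptors, with intervals that overlapped those of no other library. *TNFRSF9* (4-1BB) ran from 24.1 CPM in the salivary gland over a median of 74.8 CPM to 208 CPM in the jejunum and 210 CPM in the cecum. *TNFRSF25* (DR3), the receptor of TL1A, ran from 10.3 CPM in the abomasum to 93.9 CPM in the rectum.

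The *CD3E* barcodes were the highest class for *TNFRSF18*, *TNFRSF4*, and *TNFRSF9* in 9 of 9 NB libraries and in 4 of 4 AD libraries. The NB medians stood over the next class by 13.7 times for *TNFRSF9*, 13.2 times for *TNFRSF4*, 8.82 times for *TNFRSF18*, and 2.17 times for *TNFRSF25*, all after the added 5 CPM. For *TNFRSF18* the next class was the *MS4A1* barcodes, with 34.7 CPM in the NB ileum and 33.6 CPM in the NB colon but 1.33 CPM in the NB cecum and 1.14 CPM in the NB salivary gland. Its margin of 3.14 on the log2 scale became 2.36 without the doubtful classes and 2.14 without the cecum libraries. *TNFRSF25*, the closest to the limit, had margins from 0.64 to 1.32 over the other settings and no longer led in several of them.

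**Figure D2:**
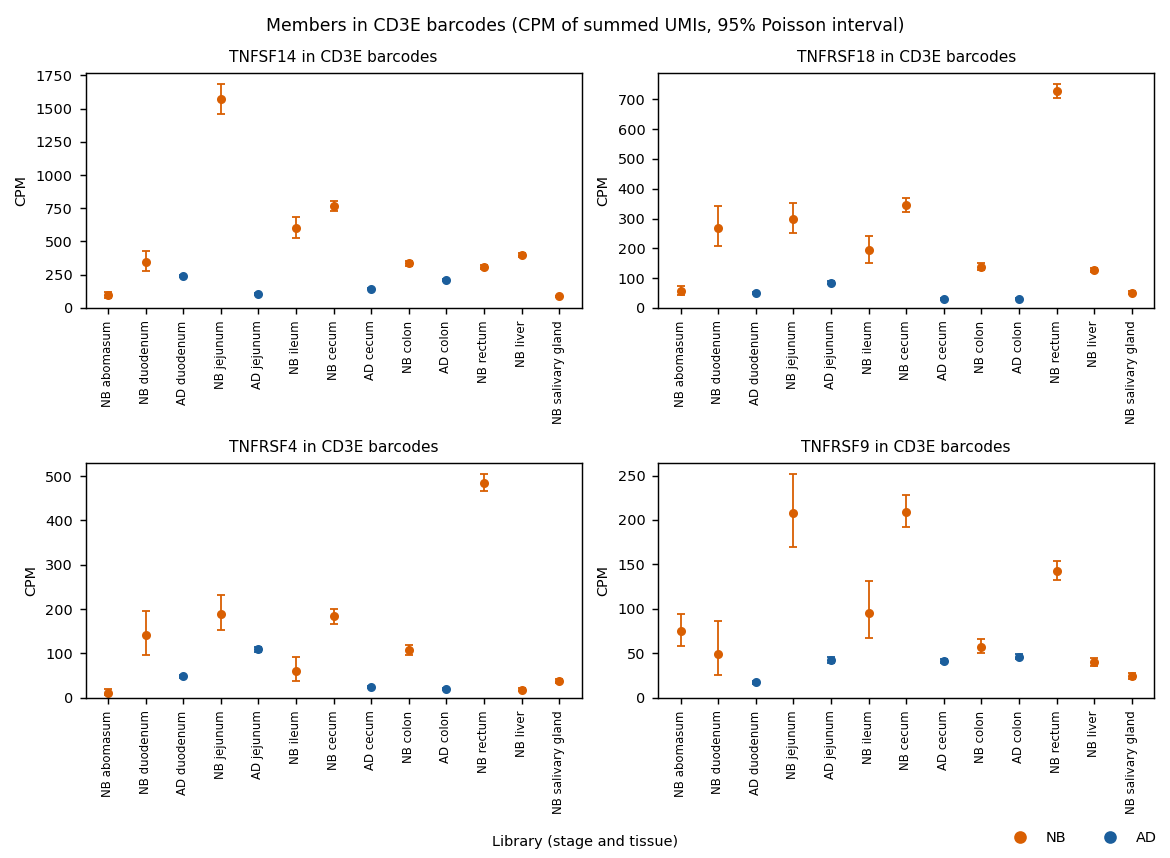
CPM of *TNFSF14*, *TNFRSF18*, *TNFRSF4*, and *TNFRSF9* (y axes) in the *CD3E* barcodes of each library (x axes), with NB libraries in orange and AD libraries in blue. Points are CPM of summed UMIs and bars are 95% Poisson intervals. The NB jejunum is highest for *TNFSF14* at 1571 CPM, the NB rectum is highest for *TNFRSF18* and *TNFRSF4* at 728 and 485 CPM, and the AD points of *TNFRSF18* sit at 29.6 to 84.4 CPM.

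Regulatory T cells could be examined in the AD duodenum, where 28 *CD3E* barcodes held a UMI of *FOXP3*, their defining transcription factor, and 5836 did not. *TNFRSF4* was at 382 CPM in the *FOXP3*-positive and 47.0 CPM in the other barcodes, an 8.12-fold difference (95% interval 5.59 to 11.4). *TNFRSF18* stood at 382 and 47.9 CPM, 7.98-fold higher (5.50 to 11.2). *TNFRSF1B*, known from regulatory T cells, stood at 337 and 74.6 CPM, 4.52-fold higher (3.04 to 6.47). *TNF* was lower in the *FOXP3*-positive barcodes, with 1 UMI or 11.2 CPM against 103 CPM, 0.109-fold (0.00275 to 0.606). The intervals of *TNFSF14*, *LTB*, and *TNFRSF9* included 1. No other library had 20 such barcodes.

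The 3 receptors of BAFF and APRIL led in the B cell class. *TNFRSF13C* (BAFF receptor), carried by mature B cells, was at 205 CPM in the NB ileum *MS4A1* barcodes, 246 in the NB colon, and 436 in the NB salivary gland, against 3.98 CPM in the NB cecum. In the AD libraries it was at 178 CPM in the duodenum, 157 in the jejunum, 284 in the cecum, and 194 in the colon. *TNFRSF13B* (TACI), carried by activated and memory B cells, was at 12.2, 50.5, 20.8, and 3.99 CPM in the NB ileum, cecum, colon, and salivary gland. *TNFRSF17* (BCMA), the receptor of plasma cells, was at 16.3, 27.9, 41.5, and 0.57 CPM in the same order. The NB salivary gland therefore had the most *TNFRSF13C* and the least of the other two receptors. NB margins over the next class were 40.6 times for *TNFRSF13C*, 4.35 times for *TNFRSF17*, and 3.39 times for *TNFRSF13B*, after the added 5 CPM. Over all settings the margin of *TNFRSF13C* ran from 2.12 to 7.08 on the log2 scale. *TNFRSF13B* and *TNFRSF17* no longer led when barcodes of several classes were kept, where the margin of *TNFRSF17* was 0.15 on the log2 scale. The margin of *TNFRSF13B* stayed at 1.17 or more in every setting, so it missed the limit of 10 CPM and not the factor of 2. *TNFRSF17* also lost its lead under the *PTPRC* condition (immune barcodes had to hold this leukocyte gene and other barcodes to lack it).

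Barcodes with none of the class markers but with UMIs of both *JCHAIN* and *MZB1* gave a plasma cell fraction in 8 libraries, with 20 barcodes in the NB liver and 62 to 409 in the others. *TNFRSF17* was high in each of them, at 307 CPM in the NB ileum, 388 in the NB cecum, 338 in the NB colon, 195 in the NB liver, 506 in the AD duodenum, 374 in the AD jejunum, 516 in the AD cecum, and 441 in the AD colon. The lowest of these levels was above the highest in the *MS4A1* barcodes, which was 146 CPM in the AD jejunum. *TNFRSF13B* was at 60.8 to 167 CPM in the plasma cell barcodes. *TNFRSF13C* split them, with 151 CPM in the NB ileum and 157 CPM in the NB colon but 23.4 to 43.0 CPM elsewhere. *TNFRSF18* split them in the same libraries, with 323 CPM in the NB ileum and 192 CPM in the NB colon but 0 to 14.4 CPM elsewhere. In the NB ileum and NB colon the fraction thus held a receptor of mature B cells, and whether it was of plasma cells alone was not tested. *TNFRSF17* overlaps *GSPT1* in the RefSeq gene table.

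**Figure D3:**
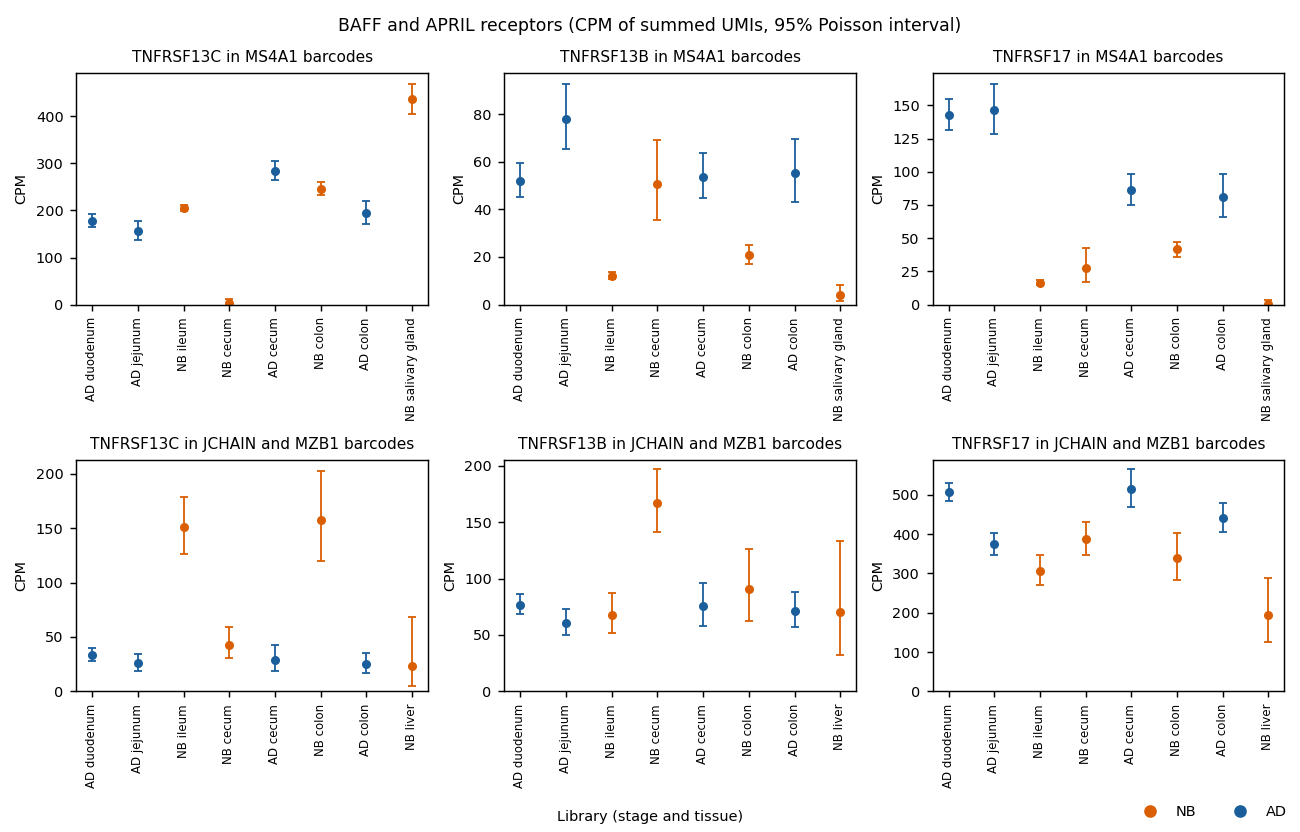
CPM of *TNFRSF13C*, *TNFRSF13B*, and *TNFRSF17* (y axes) in the *MS4A1* barcodes and in barcodes with *JCHAIN* and *MZB1* but no class marker, by library (x axes), with NB libraries in orange and AD libraries in blue. Points are CPM of summed UMIs with 95% Poisson intervals. *TNFRSF17* lies at 0.57 to 146 CPM in the *MS4A1* barcodes and at 195 to 516 CPM in the *JCHAIN* and *MZB1* barcodes.

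*TNFRSF6B* (decoy receptor 3) encodes a secreted protein that captures FASL, LIGHT, and TL1A. It led in the mesenchymal class. Its NB *COL1A2* levels were 700 CPM in the duodenum, 694 in the jejunum, 371 in the ileum, 358 in the rectum, 341 in the cecum, 237 in the colon, 176 in the abomasum, 52.5 in the reticulum, 9.80 in the omasum, and 5.05 in the salivary gland. All intestinal libraries lay above the abomasum, and the forestomach and salivary gland lay below it. The low end rests on small classes, with 209636, 408044, and 396188 UMIs of all genes in the reticulum, omasum, and salivary gland. Epithelial markers in these barcodes were at 844 CPM in the reticulum and 551 CPM in the omasum, and their part was not tested. The stomach, intestine, and salivary gland were also dissociated with different enzymes, and the part of this was not tested. The NB median of 289 CPM was 19.4 times the next class after the added 5 CPM. The highest level outside the mesenchymal class was 57.8 CPM, in the NB reticulum epithelial barcodes, above the 52.5 CPM of the *COL1A2* barcodes there.

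Other receptors were broad. *TNFRSF1A* (TNFR1), the widely expressed death domain receptor of TNF, passed 10 CPM in 63 of the 70 pairs of class and library. Its NB median was 343 CPM in the *PECAM1* barcodes, 210 in the *COL1A2*, 163 in the *C1QA*, 53.3 in the epithelial, and 38.6 in the *CD3E* barcodes. It was the highest of the classes in the *PECAM1* barcodes in 9 of 10 NB libraries but stayed under the factor of 2, at 1.62 times the next class. *TNFRSF1B* (TNFR2), the receptor of membrane TNF on leukocytes, had NB medians of 86.4 CPM in the *C1QA* and 84.7 CPM in the *CD3E* barcodes. Its highest level was 259 CPM in the NB liver *PECAM1* barcodes, next to 211 CPM in the NB liver *C1QA* barcodes. *TNFRSF21* (DR6), a death domain receptor, passed 10 CPM in 56 pairs, with NB medians of 99.4 CPM in the *C1QA* and 59.4 CPM in the epithelial barcodes. It reached 195 CPM in the AD duodenum *C1QA* barcodes and 105 CPM in the NB rectum epithelial barcodes.

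*TNFRSF12A* (FN14), the injury-induced receptor of TWEAK had its highest levels in the forestomach. It was at 153 CPM in the omasum and 138 CPM in the reticulum *PECAM1* barcodes, against 1.87 to 59.5 CPM in the other NB libraries. In the *COL1A2* barcodes it was at 129 CPM in the reticulum, 94.8 in the rectum, and 73.5 in the omasum, against 12.6 to 59.8 CPM elsewhere in NB. In the epithelial barcodes it stood at 58.5 CPM in the reticulum and 29.0 in the omasum, with 59.4 CPM in the NB liver and 2.00 to 11.4 CPM in the other NB libraries. Epithelial markers were also high in the forestomach *PECAM1* barcodes, at 279 CPM in the reticulum and 328 CPM in the omasum against at most 69.5 CPM elsewhere, and in the *COL1A2* barcodes, at 844 and 551 CPM against at most 98.5 CPM. The sum of 6 immediate early genes, which respond within minutes to stimulation and to dissociation, was highest there among the *COL1A2* barcodes, at 8686 and 8536 CPM. Their part in the *TNFRSF12A* values, and that of the enzymes used for the stomach, was not tested. *TNFRSF12A* overlaps *CLDN6* in the RefSeq gene table.

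The forestomach epithelium gave further differences among the members. The reticulum had 5978 and the omasum 8912 barcodes with *KRT14*, a keratin of basal squamous epithelium. *TNFRSF12A* was at 59.3 CPM in those of the reticulum and 29.3 CPM in those of the omasum. *TNFRSF6B* was at 58.8 and 8.83 CPM. *TNFRSF19* (TROY), a receptor of epithelial stem and progenitor cells, was at 8.37 and 17.1 CPM, and *TNFRSF1A* at 87.7 and 87.3 CPM. *TNFRSF19* was also seen in the *COL1A2* barcodes of both tissues, at 38.2 CPM in the reticulum and 53.9 CPM in the omasum, and at 14.1 CPM in the *PECAM1* barcodes of the omasum. In other tissues it stayed at or below 4.74 CPM in every class. *TNFRSF11B* (osteoprotegerin), the decoy of RANKL, peaked at 14.3 CPM in the NB reticulum *COL1A2* barcodes, from 3 UMIs, and stood at 11.5 CPM in the NB duodenum and 11.6 CPM in the NB jejunum epithelial barcodes.

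NB and AD libraries could be compared in the duodenum, jejunum, cecum, and colon. A gene was called higher in a stage when log2((NB + 5)/(AD + 5)) was at least 1 in size and of the same sign in every tissue with both stages. Statements that a gene was above or below AD by its intervals ask for no such size and cover counting error only. No share of all genes was counted for them, so they cannot be told from the background. In the *CD3E* barcodes 1 of 17 members judged was called higher in NB, against 1.33% of all 8418 genes judged, and 0 were called higher in AD, against 1.47%. The median member stood at 0.62 on this log2 scale, where the median of all genes was -0.15. The NB duodenum had only 56 *CD3E* barcodes.

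The called gene was *TNFRSF18*. It was at 269 CPM in NB and 49.3 CPM in AD in the duodenum, 299 and 84.4 in the jejunum, 346 and 29.6 in the cecum, and 138 and 30.2 in the colon. In these 4 tissues every NB value lay above every AD value, and the call rests on the same values. Other NB tissues went down to 50.1 CPM, in the salivary gland, below the AD jejunum. How many of all genes lacked overlap was not counted, here or for the called genes below. The NB level was 5.46-fold higher (95% interval 4.18 to 7.02), 3.55-fold (2.96 to 4.22), 11.7-fold (10.6 to 12.9), and 4.57-fold (4.08 to 5.13) in that order. *TNFRSF4* was also above AD in all 4 tissues by its intervals, at 2.90-fold (2.00 to 4.08), 1.73-fold (1.39 to 2.14), 7.75-fold (6.85 to 8.77), and 5.32-fold (4.66 to 6.08), but the jejunum fell short of the called size. *TNFSF14* was at 1.44-fold (1.14 to 1.78), 15.4-fold (14.1 to 16.8), 5.32-fold (5.03 to 5.62), and 1.60-fold (1.50 to 1.70). *TNFRSF9* was at 2.85-fold, 4.86-fold, 5.09-fold, and 1.25-fold, and *TNFRSF6B* at 11.6-fold, 10.9-fold, 7.39-fold, and 3.82-fold from 7 to 23 NB UMIs, with all intervals above 1. Markers of the mesenchymal class, in which *TNFRSF6B* led, moved with it in the *CD3E* barcodes, at 45.5, 48.8, 121.7, and 12.5 CPM in NB and 0.191, 0.394, 0.638, and 2.97 CPM in AD. Their part in the *TNFRSF6B* values was not tested.

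The T cells of both stages differed in other ways too. Their own summed T cell markers were lower in NB, at 464, 315, 341, and 382 CPM against 897, 1055, 1260, and 1361 CPM in AD (duodenum, jejunum, cecum, and colon). *CD8A* was at 59.6 to 139 CPM in the NB and 238 to 321 CPM in the AD *CD3E* barcodes of these tissues, and *CD4* at 8.28 to 94.2 and 75.5 to 267 CPM. *FOXP3* was at 0 to 2.78 CPM in NB and 0.183 to 1.39 CPM in AD. The summed immediate early genes were higher in NB in 3 of the 4 tissues and lower in the colon, at 5920 against 6672 CPM. The part of these differences in the *TNFRSF18* and *TNF* values was not tested. *TNF* had the other direction in *CD3E* barcodes of the cecum, at 0.445-fold (0.371 to 0.530), and the colon, at 0.792-fold (0.700 to 0.892). The higher NB levels of *TNFRSF18* and *TNFSF14* were not limited to *CD3E* barcodes. By intervals, *TNFRSF18* was above AD in 3 of 4 tissues in *C1QA* and in 2 of 3 in epithelial barcodes. *TNFSF14* was above AD in 2 of 4 tissues and below it in 1 in *C1QA* barcodes, and above it in 2 of 3 in epithelial barcodes.

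In the *C1QA* barcodes 1 of 15 members judged was called higher in NB, against 1.78% of all genes, and 1 was called higher in AD, against 0.362%. *TNF* was the gene higher in NB. It was at 427 CPM in NB and 32.9 CPM in AD in the duodenum, 304 and 39.2 in the jejunum, 222 and 22.7 in the cecum, and 393 and 24.2 in the colon. In these tissues the groups did not overlap, whereas the NB salivary gland, with no *TNF* UMI, lay below the AD values. The NB level was 13.0-fold (95% interval 10.7 to 15.9), 7.76-fold (7.13 to 8.46), 9.76-fold (5.56 to 18.9), and 16.2-fold (10.7 to 25.8) higher in the order above. The receptor *TNFRSF1A* differed far less in the same barcodes, from 0.605-fold (0.489 to 0.750) in the colon to 1.28-fold (1.14 to 1.43) in the duodenum. *TNFSF9* was above AD in all 4 tissues by its intervals, with 1 to 10 AD UMIs per library, but below the called size in at least 1. *TNFSF13B* was lower in NB, at 0.693-fold (0.554 to 0.866) in the duodenum, 0.637-fold (0.583 to 0.695) in the jejunum, and 0.316-fold (0.227 to 0.435) in the colon, and its interval in the cecum included 1.

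Of the 24 signal genes, 2 were called in the *C1QA* barcodes, both higher in NB. *NFKBIA*, which holds NF-kappaB in the cytoplasm, was at 1126, 1386, 1462, and 1678 CPM in NB against 205, 254, 271, and 233 CPM in AD. *TNFAIP3* (A20), a ubiquitin-editing enzyme that ends TNF signaling, was at 178, 304, 342, and 146 CPM against 52.0, 49.6, 30.3, and 45.3 CPM. Other inhibitors of the list were not called, such as *TNIP1*, at 99.5, 98.7, 99.96, and 70.7 CPM in NB and 106, 107.5, 110, and 111 CPM in AD. The summed immediate early genes moved with *TNF*, at 6970, 8552, 9564, and 7826 CPM in NB and 875, 987, 1443, and 2299 CPM in AD. The NB salivary gland, with no *TNF* UMI, had 1636 CPM of these genes and 398 CPM of *NFKBIA*. The part of the immediate early genes or of dissociation in the *TNF* values was not tested.

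**Figure D4:**
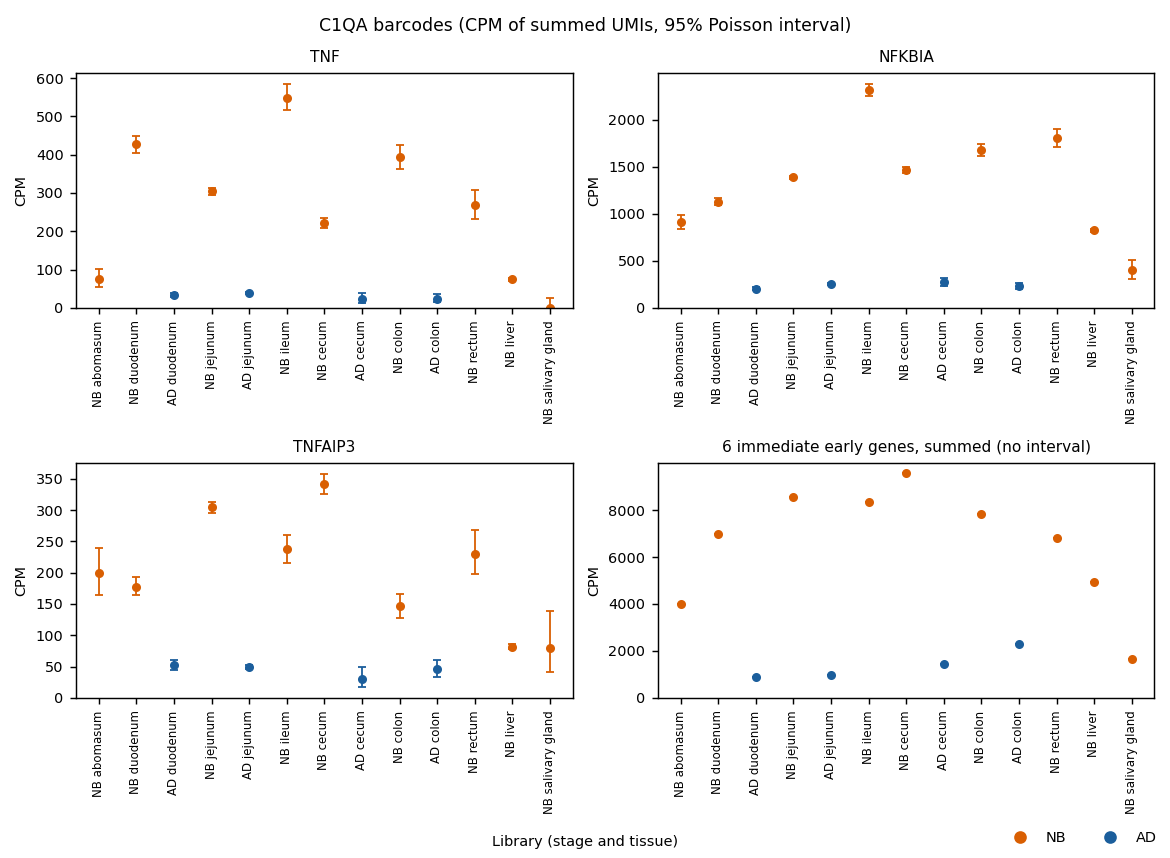
CPM of *TNF*, *NFKBIA*, *TNFAIP3*, and 6 summed immediate early genes (y axes) in the *C1QA* barcodes of each library (x axes), with NB libraries in orange and AD libraries in blue. Points are CPM of summed UMIs with 95% Poisson intervals, except for the immediate early genes, which are drawn without an interval. The 4 AD libraries sit at 22.7 to 39.2 CPM of *TNF* and at 875 to 2299 CPM of the immediate early genes, and the NB libraries of the same tissues at 222 to 427 CPM and 6970 to 9564 CPM.

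*TNFRSF17* was the member higher in AD *C1QA* barcodes. It was at 37.5 CPM in the AD duodenum, 29.7 in the jejunum, 13.3 in the cecum, and 78.0 in the colon, against 0, 0.0685, 3.98, and 11.03 CPM in NB. The AD level was at least 42.8-fold higher in the duodenum, taking 3 UMIs for the NB library (34.3-fold at the lower end of the counting interval), and 434-fold higher in the jejunum, where NB had 1 UMI (95% interval 77.5 to 17166). It was 3.33-fold higher in the cecum and 7.07-fold in the colon. *JCHAIN* and *MZB1* moved with it, at 12158, 9979, 6628, and 20144 CPM in the AD and 14.0, 12.7, 896, and 712 CPM in the NB *C1QA* barcodes. With at least 2 UMIs of *C1QA* asked for, the median log2 ratio went from -2.57 to -0.53 and the call was lost. It was also lost when barcodes of several classes were kept, under the *PTPRC* condition, with the mean over barcodes, and with 10 CPM added in place of 5. The part of plasma cell RNA in these values was not tested.

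In the epithelial barcodes the jejunum, cecum, and colon had both stages. Of 12 members judged, 0 were called higher in NB (1.12% of all genes) and 1 in AD (2.36%). *TNFSF13* (APRIL) was at 22.3 CPM in the AD jejunum, 43.8 in the AD cecum, and 13.5 in the AD colon, against 0.570, 0.394, and 1.06 CPM in NB. All AD values lay above all NB values, and the AD level was 39.1-fold (95% interval 13.7 to 153), 111-fold (19.6 to 4428, with 1 NB UMI), and 12.7-fold (5.57 to 31.5) higher. The other NB gut libraries held 0.332 to 7.51 CPM, the highest of them the NB duodenum. *TNFSF13* overlaps another coding gene in the RefSeq gene table, as *TNFSF12* does.

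The epithelium of both stages differed in makeup. The tuft cell genes *POU2F3*, *TRPM5*, and *AVIL* summed to 155, 35.9, and 75.1 CPM in the AD jejunum, cecum, and colon and to 0.143, 0, and 4.37 CPM in NB. The AD barcodes without a UMI of these genes also held *TNFSF13*, at 24.4, 45.1, and 14.7 CPM. Of the signal genes, *NFKBIA* was called higher in NB and *CASP8*, the caspase that death receptors turn on, was called higher in AD, at 71.7, 59.9, and 64.8 against 19.5, 25.2, and 15.6 CPM. The summed epithelial markers moved the same way, at 3231, 4359, and 4288 CPM in AD against 1041, 1696, and 1443 CPM in NB, and their part in the *TNFSF13* and *CASP8* values was not tested. *CASP8* was not called in other classes. Its medians over all AD and all NB libraries were still 105 and 45.5 CPM in *CD3E* and 75.6 and 44.0 CPM in *C1QA* barcodes. In *PECAM1* barcodes they lay closer, at 41.2 and 38.4 CPM. *TNFRSF21* was above AD by its intervals in the jejunum, at 2.10-fold (1.53 to 2.96), and the cecum, at 1.36-fold (1.08 to 1.72), but not in the colon. By their intervals *TNF*, *TNFSF14*, *LTB*, and *TNFRSF18* were also above AD in 2 of 3 tissues. Their median log2 values were 2.50, 1.71, 1.70, and 1.69, against 0.41 for *TNFRSF21*. *TNFRSF17* and *TNFRSF1B* were above NB in 2 of 3 tissues. The part of leukocyte RNA in these values was not tested. When barcodes of several classes were kept, *TNFSF13* was no longer called.

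In the *MS4A1* barcodes, with the cecum and colon to compare, 0 of 13 members were called higher in NB (1.66% of all genes) or AD (2.25%). *TNFRSF17* was higher in AD by its intervals in both tissues, at 86.4 against 27.9 CPM in the cecum and 81.1 against 41.5 CPM in the colon, and fell short of the called size in the colon. *TNFRSF13C* was at 284 CPM in the AD and 3.98 CPM in the NB cecum, and at 194 and 246 CPM in the colon. B cell markers in these barcodes were at 102 CPM in the NB and 1209 CPM in the AD cecum, and at 1446 and 1010 CPM in the NB and AD colon. The plasma cell genes *JCHAIN* and *MZB1* moved with *TNFRSF17*, at 7105 CPM in the NB and 16173 CPM in the AD cecum, and 3258 and 25398 CPM in the colon. Their part in the *TNFRSF17* values was not tested. Of the pathway genes, *CD27*, a receptor of memory B cells, was called higher in AD, and *NFKBIA* higher in NB. The summed immediate early genes were at 6070 CPM in the NB and 1208 CPM in the AD cecum, and at 3336 and 3066 CPM in the colon. The part of these, of plasma cell RNA, and of the few B cell markers in the NB cecum in the *CD27* and *NFKBIA* calls was not tested.

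The *PECAM1* barcodes of the AD duodenum and jejunum lacked endothelial markers, so their contrast with NB compares unlike barcodes. There, 5 of 15 members were called higher in NB (23.8% of all genes), namely *TNFSF10*, *TNFRSF1A*, *TNFSF12*, *TNFRSF12A*, and *TNFRSF25*. Another 3 were called higher in AD (2.69%), namely *TNFRSF17*, *TNFRSF13B*, and *TNFSF13B*. *TNFRSF17* was at 478 CPM in the AD duodenum and 154 CPM in the AD jejunum, beside the plasma cell genes given above. No stage difference of endothelial cells is read from these values.

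The *COL1A2* barcodes had both stages only in the colon, with 152 NB and 118 AD barcodes. *TNFSF13B* (BAFF) was at 141 CPM in AD, from 113 UMIs in 41 barcodes, and at 4.81 CPM, from 5 UMIs, in NB. The AD level was 29.3-fold higher (95% interval 12.2 to 92.0). No NB library had more than 7.87 CPM of *TNFSF13B* in its *COL1A2* barcodes. *TNFRSF21* had the other direction, at 4.99 CPM in AD and 81.8 CPM in NB. *TNFRSF6B* was at 193 CPM in AD and 237 CPM in NB, at 0.817-fold with an interval (0.664 to 1.00) that reached 1, and *TNFRSF1A* at 277 and 204 CPM. Mesenchymal markers were at 12186 CPM in the NB and 15785 CPM in the AD barcodes, and macrophage markers at 19.3 and 14.97 CPM. With 1 tissue, no gene was called here.

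**Figure D5:**
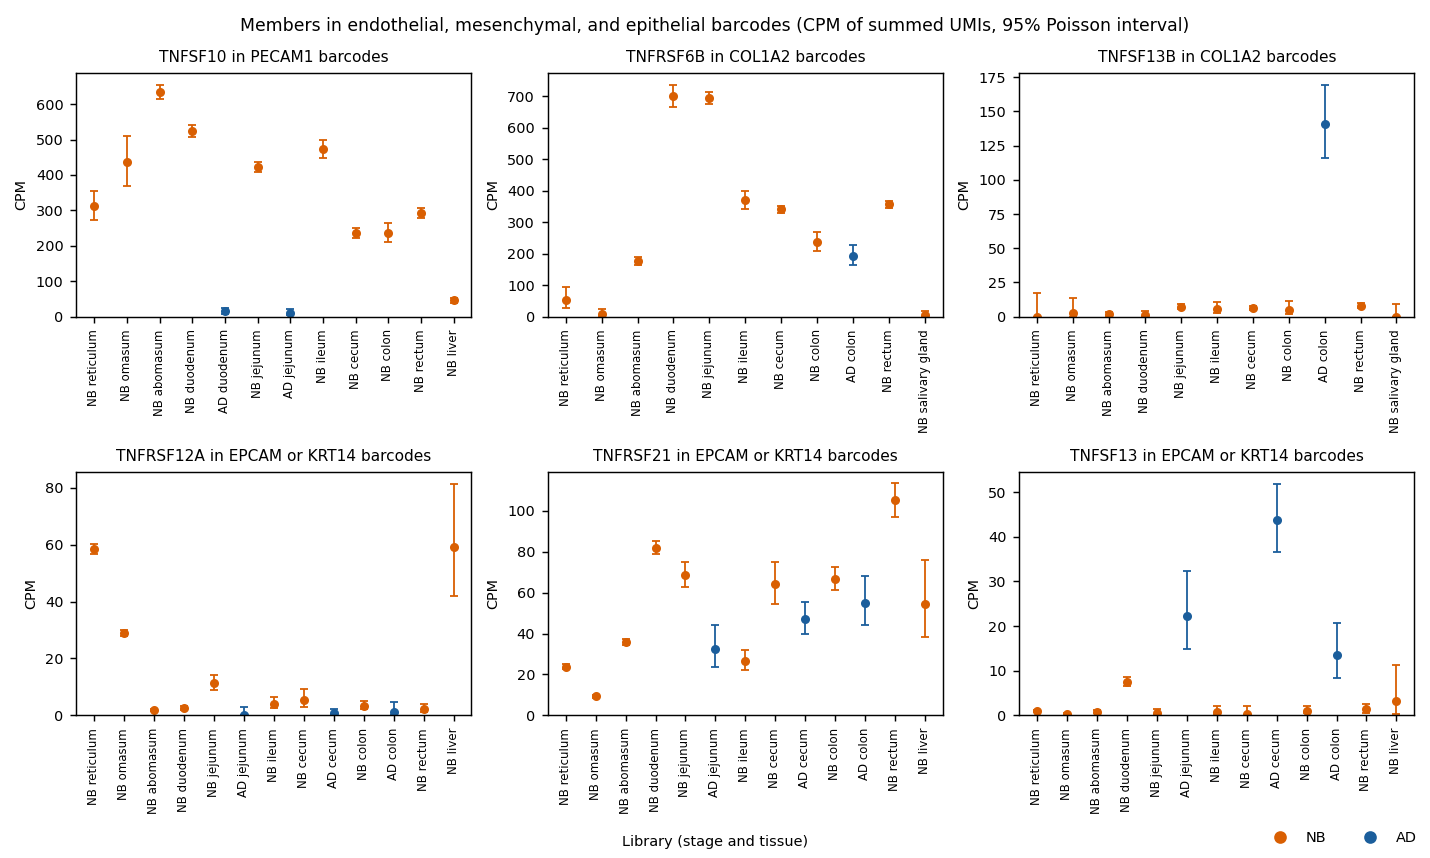
CPM (y axes) by library (x axes) of *TNFSF10* in *PECAM1* barcodes, *TNFRSF6B* and *TNFSF13B* in *COL1A2* barcodes, and *TNFRSF12A*, *TNFRSF21*, and *TNFSF13* in epithelial barcodes, with NB libraries in orange and AD libraries in blue. Points are CPM of summed UMIs with 95% Poisson intervals. *TNFSF13B* stands at 141 CPM in the AD colon *COL1A2* barcodes and at no more than 7.87 CPM in the NB libraries, and the AD *PECAM1* barcodes with little *TNFSF10* lacked endothelial markers.

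Read as ligand and receptor pairs, some members had their highest level in different classes and others in the same one. In the NB libraries *TNFSF13B* was highest in macrophages and its receptors *TNFRSF13C*, *TNFRSF13B*, and *TNFRSF17* in B cells, while the *JCHAIN* and *MZB1* barcodes held the most *TNFRSF17*. *TNF* was highest in the *C1QA* barcodes, and its receptors *TNFRSF1A* and *TNFRSF1B* had their highest NB medians in the *PECAM1* and the *C1QA* barcodes, the latter only 1.02 times the *CD3E* median after the added 5 CPM and the highest class for *TNFRSF1B* in 3 of 9 NB libraries. *TNFSF12* and *TNFRSF12A* both had their highest NB medians in the *COL1A2* barcodes, at 54.2 and 54.6 CPM, but these barcodes were the highest class for *TNFSF12* in only 3 of 10 NB libraries and for *TNFRSF12A* in 8 of 10. *TNFRSF4*, *TNFRSF9*, and *TNFRSF18* led in T cells, whereas of their ligands *TNFSF4* did not reach 10 CPM anywhere, *TNFSF18* passed it in 1 pair of class and library, and *TNFSF9* in 10, with its highest NB median, 12.1 CPM, in the *C1QA* barcodes. *TNFSF8* was found in the B cell, T cell, and macrophage classes, and its receptor *TNFRSF8*, which overlaps *TNFRSF1B* in the RefSeq gene table, gave 8 UMIs in all classes. For *TNFSF11*, *TNFRSF11A* stayed below 10 CPM and *TNFRSF11B* passed it in 6 pairs.

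Family genes whose symbols fall outside the *TNFSF* and *TNFRSF* names were taken as a further list of 12. Of 7 that could be judged, 3 (42.9%) led in a class, against 21.5% of all genes judged, again without matching by level. *CD40LG*, the helper T cell signal to B cells, and *FASLG*, the killer ligand of lymphocytes, led in the *CD3E* barcodes by 3.49 and 4.87 times, and *NGFR*, the low-affinity neurotrophin receptor, led in the *COL1A2* barcodes by 3.11 times. Of 24 genes that carry the signal inside the cell (TRAF adaptors, NF-kappaB subunits and inhibitors, and death signaling genes), all could be judged and 0 led in a class, against the same 21.5%.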

How the data were processed

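The authors counted reads with Cell Ranger 3.1.0 on the ARS-UCD1.2 cattle genome. The annotation release is not given in the sources used here. The deposited values are raw UMI counts, not normalized, in 15 libraries with 17707625 to 129458578 UMIs each. The filters kept barcodes in which 500 to 4000 genes were seen, the UMI total was below 50000, and mitochondrial genes took less than 40%. Doublets were removed with a Scrublet-type score at an assumed rate of 0.8% per 1000 barcodes. UMIs were summed per library and class and expressed as CPM. Poisson and conditional binomial intervals (95%) were exact. Splits inside a class needed 20 barcodes, or 50 for *PROX1*. In the NB to AD comparison, genes with a mean of at least 5 CPM were judged. The scripts used Python 3.11.15, NumPy 2.4.6, SciPy 1.17.1, pandas 2.3.3, and scikit-learn 1.9.0, and were tested on simulated data.

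The members, lists, and rules were chosen with earlier results of these data known. Members were named when they led in a class, were called between stages, belonged to a known ligand and receptor pair, or stayed under 10 CPM. *TNFRSF21* and *TNFRSF19*, the *KRT14* and tuft cell values, and the colon *COL1A2* values were singled out after they had been seen. The lists of immediate early genes and of plasma cell genes whose sums are set beside members were likewise added after values had been seen. Overlaps between genes, on either strand, come from the RefSeq table of ARS-UCD2.0, which matched all 30 members, and 8 members overlapped a coding gene. That build differs from the files', so no coordinates or sequences are given. How reads of overlapping genes were split was not tested.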

Additional observations from a re-analysis of the deposited data

Results flagged for a closer look

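In 4 members the NB to AD difference had opposite directions in different tissues by at least 1 on the log2((NB + 5)/(AD + 5)) scale, with counting intervals that excluded equality. The rule was applied to the members alone, so no share of all genes can be set beside this count. The differences between tissues were not tested. In *CD3E* barcodes *TNFSF12* was at 1.60 in the duodenum, from 8 NB UMIs, and -1.26 in the cecum. Endothelial markers in these barcodes were at 136.6 CPM in NB and 3.06 CPM in AD in the duodenum, and at 37.4 and 4.99 CPM in the cecum. In *MS4A1* barcodes *TNFRSF18* was at 1.13 in the colon and -1.46 in the cecum, whose NB barcodes had few B cell markers. In *C1QA* barcodes *TNFSF10* was at 1.46 in the duodenum and -1.09 in the colon, where endothelial markers were at 188 CPM in NB and 0.615 CPM in AD in the duodenum and at 35.7 and 1.05 CPM in the colon. In the same class *TNFRSF13C* was at 2.31 in the colon and -1.16 in the duodenum. B cell markers in these barcodes were at 117.4 CPM in NB and 29.5 CPM in AD in the colon, and at 50.8 and 26.7 CPM in the duodenum. The part of other cells' RNA in these values was not tested.

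Barcodes with no class marker, of which only those with *JCHAIN* and *MZB1* were described above, entered no comparison of the classes or stages. In 8 cases a member was higher there than in every class of the same library, with intervals apart. Only the members were searched, so this count has no share of all genes beside it either. *TNFRSF17* was at 67.3 CPM in the NB ileum, 288 CPM in the AD cecum, and 296.5 CPM in the AD colon. *TNFRSF13B* was at 21.3 CPM and *LTA* at 33.3 CPM in the NB ileum. *LTB* was at 1111 CPM in the NB salivary gland. *TNF* was at 381 CPM in the NB jejunum and 87.8 CPM in the NB liver.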

How the results depend on the processing

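The counts were recomputed under 24 other settings. The shares of all genes were not, so the counts in this section have no background beside them. The number of leading members lay between 8 and 14 in all of these settings, and between 12 and 13 when 1 tissue was left out. It was 8 when barcodes of several classes were kept, of which 7 were among the 12: *TNF*, *TNFSF13B*, *TNFRSF13B*, *TNFRSF17*, and *TNFRSF25* no longer led, and *LTB* did. *TNFRSF13B* missed only the limit of 10 CPM there, as its margin stayed at 1.17 or more on the log2 scale in every setting. The stage counts moved more. In *CD3E* barcodes 2 members were called with at least 2 UMIs of the marker, with under 10% mitochondrial UMIs, and with 1 CPM added in place of 5, and 4 with the *PTPRC* condition, which asks for this leukocyte gene in immune barcodes and its absence in others. In *C1QA* barcodes 1 member, *TNF*, was called with at least 2 UMIs, the *PTPRC* condition, the mean over barcodes, and 10 CPM added. In *MS4A1* barcodes 1 was called with several classes kept, with no upper gene limit, and with the top genes left out of the total, each time *TNFRSF17* in AD. In epithelial barcodes 0 were called with several classes kept, and 2 with the *PTPRC* condition, the mean over barcodes, and 1 CPM added. In *PECAM1* barcodes 3 were called with several classes kept, where *TNFSF13B* reversed to 0.31. Leaving out 1 tissue at a time gave 1 to 3 calls in *CD3E* barcodes (2 without the duodenum, 3 without the jejunum or the colon), 2 to 3 in *C1QA*, and 1 to 4 in epithelial barcodes (4 without the jejunum, 2 without the cecum or the colon). The *MS4A1* and *PECAM1* comparisons rest on 2 tissues each, the fewest allowed. Neither of these could be left out, so this step says nothing on their counts. Without the doubtful classes, an alternative added after seeing the data, 13 members led and the *MS4A1* and *PECAM1* comparisons had under 2 tissues. For single genes, 491 of 536 values stayed within their limits, 44 moved, and 1 reversed. On the log2 scale *TNF* in *C1QA* barcodes ran from 2.16 to 3.58, *TNFRSF18* in *CD3E* from 1.77 to 2.34, *TNFSF13* in epithelial from -3.89 to -1.42, and *TNFRSF17* in *C1QA* from -3.78 to -0.53. TMM factors moved the median of all genes from -0.26 to 0.01 in epithelial barcodes and from 0.73 to 0.06 in *PECAM1* barcodes. No paired analysis was possible because the labels give no replicate numbers to use as a block, beyond the pairing of NB and AD by tissue that the comparison itself already rests on. The depth of small classes limits what could be seen, such as the 56 NB duodenum *CD3E* barcodes.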
